A study of Mus musculus with 5 samples.

Results

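The costimulatory and inhibitory receptors of T cells described here are Cd28, Cd2, Thy1, Cd5, Cd6, Pdcd1, Ctla4 and Cd69, taken by name with every probe set that the array annotation gives to 1 of these genes alone. Of the 8 genes, 7 had such a probe set, 8 probe sets in all, out of 8251 genes on the array. Cd69 had none and was not analysed here. The arrays read RNA of 5 sorted thymocyte populations. They came from the thymuses of 10 male C57BL6 mice aged 5 weeks. It is not stated whether material of several mice was pooled for an array, and no genetic change or treatment is named for any group. The lineage negative, CD24 positive populations came from blast enriched thymocytes and were separated by CD44 and CD25. The double negative populations DN1 and DN2 were both high for CD44, DN1 without and DN2 with CD25. DN3 had low CD44 and carried CD25, and pre-double positive (preDP) cells had low CD44 and no CD25. Double positive (DP) cells carried both CD4 and CD8 and were sorted out of total thymocytes, so stage and cell source cannot be told apart for DP.

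T cells read antigen through the T-cell receptor, and other surface proteins set how strongly that reading counts. CD28 and CD2 add to the signal, CD5, CD6, PD-1 (the product of Pdcd1) and CTLA-4 can restrain it, and Thy-1 is the glycolipid-anchored surface protein by which mouse T-lineage cells are usually recognised. In the thymus, cells first signal through the pre-T-cell receptor at DN3, then as DP cells through the complete receptor. CD5 is known to follow the strength of that signalling on thymocytes.

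Each population was represented by 1 array, so there were no replicates, no test between populations was possible, and precision is limited by this number. Values are the authors' signal intensities on a linear scale, and a fold compares 2 arrays. Signals of different probe sets depend on the probes and were not set against each other. The floor was the median of all gene probe set values, 130.4. A fold against a signal at or under the floor is computed against 130.4 and given as at least that size. Control probe sets picked by name, for transcripts taken here as not spiked, stayed at or under 67.6. Between 4522 and 4935 genes were above the floor on an array. Where a gene had several probe sets, the log2 ratios of the top pair disagreed by an SD of 0.43 to 0.59 over the 4 consecutive comparisons. Only genes with both probe sets above the floor on both arrays entered it. That spread leaves out variation between sorts and mice. The gate genes followed the sort labels: Il2ra, which encodes CD25, was at 1156 in DN2 and 439 in DN3 and under the floor elsewhere, and Cd4 and Cd8a were highest in DP at 5096 and 20020. Cd8a was also above the floor in DN1 at 755 and in preDP at 2031. Cd44 was under the floor on every array and checks nothing. The 6 T-lineage markers with a probe set were above the floor on all arrays, with a summed signal of 2465 in DN1 and 10313 to 31554 on the others.

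Promoter sequence was held for 3 of the 7 genes, Cd5, Pdcd1 and Ctla4, which were highest in DP, preDP and DN3, so they are shown as the 3 peaks that the set has. Each is the RefSeq sequence (GRCm38.p6) of the 250 bases before the gene's start, 5′ to 3′ on the gene's strand. Capitals mark the E protein motif CAGGTG and the Ets motif AGGAAG on either strand, which did not overlap. The Cd5 window lies at chr19:10738975-10739224 (minus strand), that of Pdcd1 at chr1:94052554-94052803 (minus strand) and that of Ctla4 at chr1:60908775-60909024 (plus strand).
Cd5: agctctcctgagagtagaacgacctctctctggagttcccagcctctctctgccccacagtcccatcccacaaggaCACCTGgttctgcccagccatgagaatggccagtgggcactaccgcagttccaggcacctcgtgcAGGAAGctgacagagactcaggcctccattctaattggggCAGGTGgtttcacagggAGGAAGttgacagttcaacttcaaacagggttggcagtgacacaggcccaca
Pdcd1: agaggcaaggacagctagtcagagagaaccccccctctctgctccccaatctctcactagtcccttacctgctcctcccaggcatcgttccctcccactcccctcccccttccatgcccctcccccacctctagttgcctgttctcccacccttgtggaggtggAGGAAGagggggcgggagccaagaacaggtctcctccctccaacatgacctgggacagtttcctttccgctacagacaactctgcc
Ctla4: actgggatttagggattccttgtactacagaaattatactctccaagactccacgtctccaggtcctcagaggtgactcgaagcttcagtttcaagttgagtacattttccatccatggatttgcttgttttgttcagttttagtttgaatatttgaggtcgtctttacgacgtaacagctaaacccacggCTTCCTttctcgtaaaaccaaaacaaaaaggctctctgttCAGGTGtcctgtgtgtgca

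The Cd5 window held the E protein motif at 69 to 64 bases before the start and, on the opposite strand, at 174 to 169. It held the Ets motif at 109 to 104 and at 52 to 47. The Ctla4 window held the E protein motif at 19 to 14 bases before the start and the Ets motif on the opposite strand at 59 to 54. The Pdcd1 window held the Ets motif at 86 to 81 and no E protein motif. Of all 32851 windows of this length 17.2% held the E protein motif and 29.5% the Ets motif. TGGGAA, the letters bound by the Notch partner RBPJ, was found in the Cd5 window alone of the 3, on the opposite strand at 215 to 210, and in 21.6% of all windows. The Runx motif TGTGGT, held by 14.0% of all windows, was in none of the 3. These are matches of letters and show no binding. The Pdcd1 window had 60.4% G and C, the Cd5 window 56.8% and the Ctla4 window 42.4%, against a median of 52.4% over all windows.

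The 7 genes fell into 4 shapes over the populations. Cd28, Cd2, Cd5 and Cd6 were highest in DP and stood at 43.1% or less of that signal on every other array. Thy1 was already at 81.7% of its DP signal in DN3. Pdcd1 was highest in preDP and Ctla4 in DN3. All 7 were at least 2-fold apart between their highest and lowest arrays, as were 46.1% of the genes above the floor on any array. Of these 7, 5 were highest in DP, against 32.7% of all genes that were 2-fold apart, 1 in preDP against 20.5% and 1 in DN3 against 10.0%. None was highest in DN1 or DN2, where 25.3% and 11.6% of such genes were.

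**Figure D1:**
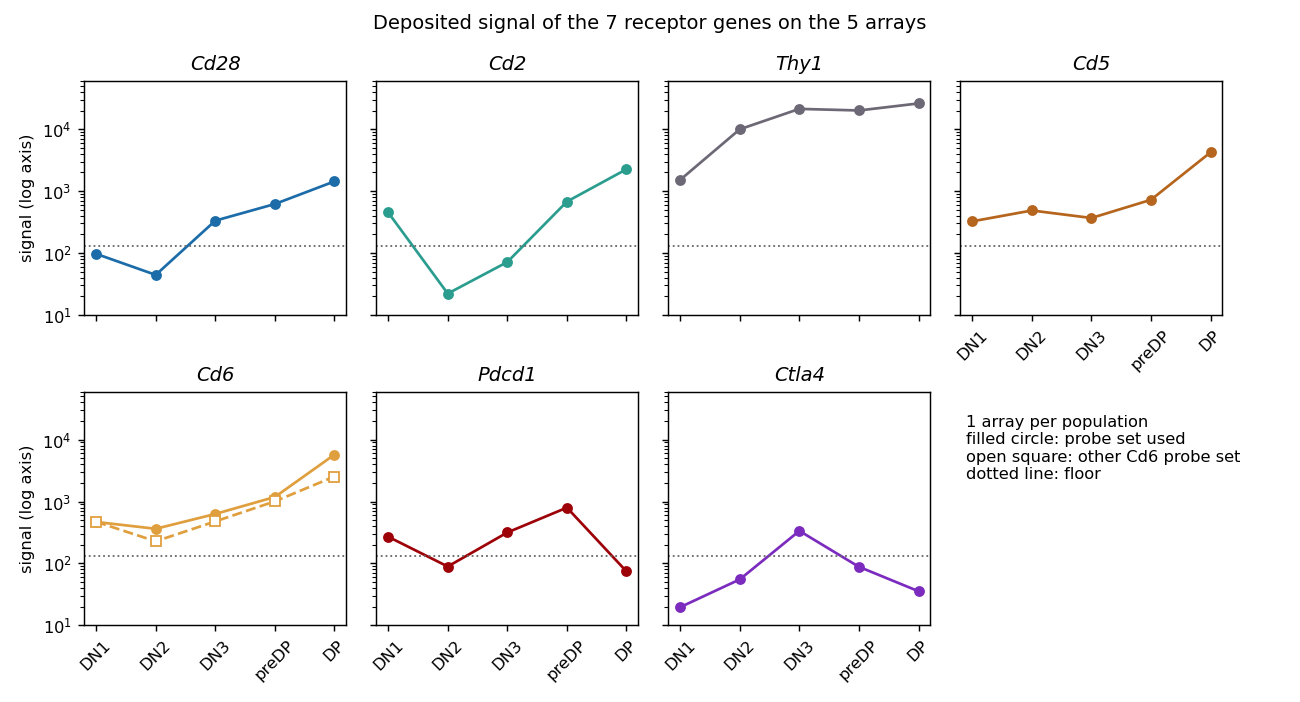
Deposited signal (log axis) of Cd28, Cd2, Thy1, Cd5, Cd6, Pdcd1 and Ctla4 in DN1, DN2, DN3, preDP and DP, with 1 array per population; points are the arrays, the dotted line is the floor of 130.4, and open squares show the other Cd6 probe set. Cd28, Cd2, Cd5 and Cd6 end highest in DP, Thy1 is high from DN2 on, and Pdcd1 and Ctla4 peak in preDP and DN3.

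Cd28 encodes the main costimulatory receptor, which binds CD80 and CD86 and works through phosphoinositide 3-kinase and protein kinase C theta. Its signal was 96.6 in DN1, 44.1 in DN2, 332 in DN3, 617 in preDP, then 1432 in DP. It was thus under the floor on the first 2 arrays and higher on each later array than on the one before. DN3 was at least 2.55-fold above DN2, preDP 1.86-fold above DN3 and DP 2.32-fold above preDP. In log2 terms these ratios were 1.35, 0.89 and 1.21, against SDs between probe sets of 0.44, 0.43 and 0.59. A higher floor at the 65th percentile of values (338.6) lay above the DN3 signal, and the first of these ratios was then 0.00.

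Cd2 encodes an adhesion and costimulatory receptor whose main ligand in mice is CD48. Its signal was 451 in DN1, 22.0 in DN2, 71.2 in DN3, 675 in preDP, then 2254 in DP. DN2 and DN3 were under the floor, with DN1 above them and DP highest. Cd2 was at least 3.46-fold lower in DN2 than in DN1, at least 5.18-fold higher in preDP than in DN3 and 3.34-fold higher in DP than in preDP. In preDP against DN3 it ranked 4 from the top of 4825 genes. With the higher floor the ratios of the first 2 comparisons were -0.41 and 0.996 in log2 terms, in place of -1.79 and 2.37.

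The DN1 array also carried markers of other cells. Of 16 myeloid markers 14 were above the floor in DN1, against 2 to 7 on the other arrays. Their summed signal was 129774 in DN1, against 867 to 3636 on the other arrays. All 11 dendritic markers with a probe set were above the floor in DN1, but so were 10 in DN2 and 6 or 7 on the later arrays. Their sum was 166811 in DN1 against 3950.5 to 7575. Of 11 B-lineage markers 10 were above the floor in DN1, against 3 to 6 on the other arrays. Ighm, the brightest of these, was 52870 in DN1 and 3009 to 8496 elsewhere. The 7 B-lineage markers at least 2-fold apart over the arrays were all highest in DN1. Among them Cd79b was 1667 in DN1 but also 1234 in DN3 and 1126 in DP. Vpreb1, which was under 2-fold apart, was highest in DP at 232, against 157 in DN1. The sums weight each gene by the brightness of its probes. Of 7 natural killer markers 3 were above it in DN1, with a sum of 908; Gzma, the one of them above the floor outside DN1, carried the sums of 3026 in DN3 and 5165 in preDP. Ebf1, a B-lineage marker, and Ncr1, Gzmb, Prf1, Eomes, Itgam and Fcgr3 were under the floor on every array. DN1 was sorted as lineage negative, a gate that is meant to remove mature cells of other lineages, and the labels do not list its antibodies. The part of other cells in the DN1 signals of Cd2, Pdcd1 and Thy1 was not tested, and in bulk samples fewer cells of a type and less RNA per cell cannot be told apart.

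**Figure D2:**
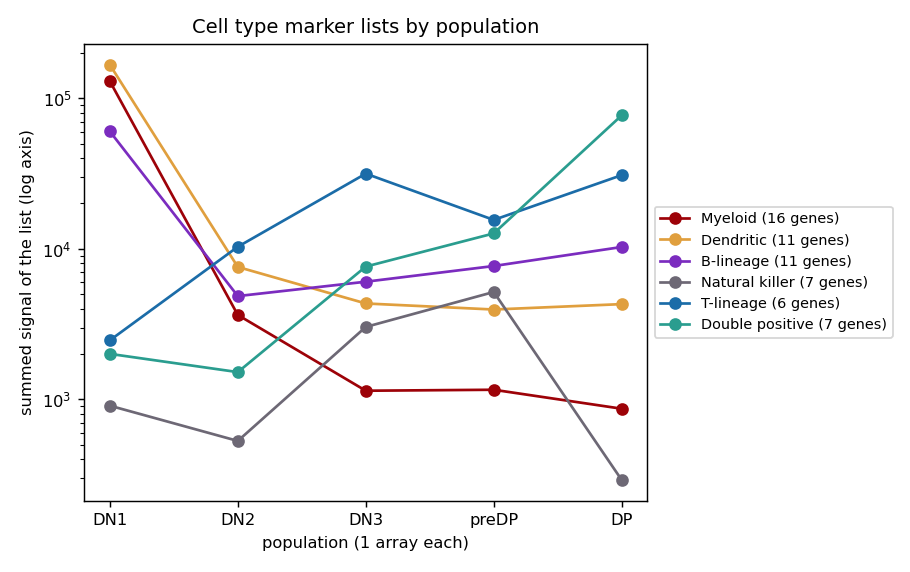
Summed signal (log axis) of 6 marker lists by population, 1 array each, with the number of genes that had a probe set. Myeloid, dendritic and B-lineage sums are highest in DN1, the sum of the double positive list in DP.

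Thy1 encodes the Thy-1 antigen. Its signal was 1517 in DN1, 9968 in DN2, 21287 in DN3, 20059 in preDP, then 26069 in DP. DN1 was lowest and DN2 next, while DN3, preDP and DP lay close together: preDP was 1.06-fold below DN3, and DP was 1.30-fold above preDP. DN2 was 6.57-fold above DN1, which ranked Thy1 at 6 from the top of 5154 genes, and DN3 was 2.14-fold above DN2. The summed signal of the T-lineage markers, which leave out Thy1, was likewise lowest in DN1 (2465, against 10313 in DN2). Most of the DN2 sum was Cd3g, at 6301 against 582 in DN1. Cd3e, Cd247 and Gata3 were also higher in DN2 than in DN1, whereas Cd3d (335 and 234 in DN1 and DN2) and Lat (318 and 243) were lower. The part of other cells in DN1 was not tested. Under quantile normalisation the ratio of DN3 to DN2 for Thy1 was 0.94 in log2 terms in place of 1.09 and so just under 2-fold.

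Cd5 encodes a scavenger receptor type glycoprotein that dampens T-cell receptor signalling. Its signal was 324 in DN1, 485 in DN2, 367 in DN3, 722 in preDP, then 4222 in DP. All 5 arrays were above the floor, and DP stood apart from the other 4. Its log2 ratio of DN2 to DN1 was 0.58 and that of DN3 to DN2 was -0.40, both under 2-fold. It was 1.97-fold higher in preDP than in DN3 and 5.85-fold higher in DP than in preDP, where it ranked 45 from the top of 4857 genes. The step into preDP, 0.98 in log2 terms, was 1.02 with arrays scaled to an equal median over all gene probe sets.

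Cd6 encodes the close relative of CD5, whose known ligand is ALCAM, and was read by 2 probe sets. The brighter gave 468 in DN1, 363 in DN2, 629.8 in DN3, 1185 in preDP, then 5732 in DP. The other gave 470.4, 228, 477, 1007 and 2538 over the same arrays. Both put the populations in the same order, with DP highest and DN2 lowest. They differed in size: DP was 4.84-fold above preDP by the brighter and 2.52-fold by the other. In the other 3 comparisons the brighter was under 2-fold (1.29-fold lower in DN2 than in DN1, 1.74-fold higher in DN3 than in DN2 and 1.88-fold higher in preDP than in DN3) and the other just over it, at 2.07-fold, 2.10-fold and 2.11-fold in the same directions. The brighter probe set has the suffix _s_at, which marks probes that can read more than 1 transcript.

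Pdcd1 encodes PD-1, an inhibitory receptor that recruits tyrosine phosphatases. Its signal was 269.9 in DN1, 89.1 in DN2, 316 in DN3, 797 in preDP, then 74.1 in DP. DN2 and DP were under the floor, and preDP was highest. Pdcd1 was at least 2.42-fold higher in DN3 than in DN2 and 2.52-fold higher in preDP than in DN3, where it ranked 19 from the top of 4825 genes. DP was at least 6.11-fold below preDP, which ranked Pdcd1 at 28 from the bottom of 4857 genes. That ratio, -2.61 in log2 terms, was between -3.43 and -1.24 over all alternatives tried. The lower value in DN2 than in DN1, at least 2.07-fold, was just past 2-fold: in log2 terms it was -1.05, but -0.89 under quantile normalisation, -0.81 with arrays scaled to an equal median and 0.00 with the higher floor. The ratio of DN3 against DN2 was also 0.00 with that floor.

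Ctla4 encodes CTLA-4, the inhibitory receptor that shares the ligands CD80 and CD86 with CD28. Its signal was 19.6 in DN1, 55.1 in DN2, 336 in DN3, 88.1 in preDP, then 35.5 in DP. DN3 was the only array above the floor. Ctla4 was at least 2.57-fold higher in DN3 than in DN2, and at least 2.57-fold lower in preDP than in DN3. The 65th percentile floor lay above its DN3 signal, so both ratios were 0.00. The floor at the 35th percentile (46.3) made them 2.61 and -1.93 in log2 terms, in place of 1.36 and -1.36.

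Counted by comparison, the 7 genes stood as follows against all genes measured on either array. In DN2 against DN1, 1 gene, Thy1, was at least 2-fold higher (4.75% of all genes) and 2, Cd2 and Pdcd1, lower (8.56%). In DN3 against DN2, 4 were higher (2.02% of all genes), namely Cd28, Thy1, Pdcd1 and Ctla4, and none lower (3.94%). Of these 4, all but Thy1 are bounds from DN3 signals of 316 to 336, and with the floor at the 65th percentile 1 was left; Thy1 was under 2-fold with quantile normalisation. In preDP against DN3, 2 were higher (1.14%), Cd2 and Pdcd1, and 1, Ctla4, lower (2.42%). In DP against preDP, 4 were higher (11.3%), Cd28, Cd2, Cd5 and Cd6, and 1, Pdcd1, lower (11.7%). Consecutive comparisons share an array, so their counts are not independent. The members' median log2 ratio, over those above the floor on either array, was -0.37, 1.19, 0.91 and 1.48 in the 4 comparisons, against 0.13, 0.002, 0.01 and 0.01 over all genes. Where 1 of the 2 signals was under the floor the ratio is a bound, and it entered these medians as such.

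In preDP against DN3, Cd5, Cd6 and Cd28 were under 2-fold, with log2 ratios of 0.98, 0.91 and 0.89 where the SD between probe sets was 0.43. Cd5 ranked 66 from the top of 4825 genes there. After DN2, Ctla4 and Pdcd1 were the only members at least 2-fold lower at any step, Ctla4 in preDP and Pdcd1 in DP.

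**Figure D3:**
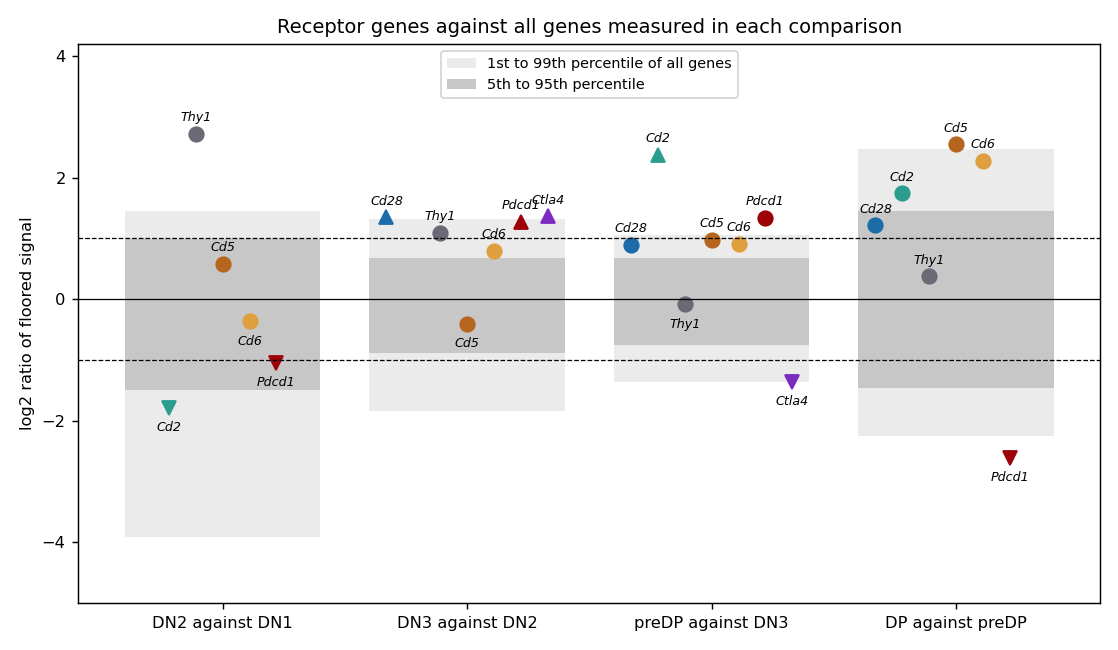
Log2 ratio of floored signal for each receptor gene in the 4 consecutive comparisons; circles are measured on both arrays, triangles are bounds with 1 signal under the floor, bands give percentiles of all genes measured, and dashed lines mark 2-fold. Thy1 in DN2 against DN1, Cd28 and Ctla4 in DN3 against DN2, Cd2 and Pdcd1 in preDP against DN3 and Cd5 in DP against preDP lie above the 99th percentile of all genes, and Pdcd1 in DP against preDP lies below the 1st.

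Genes of the set that are neighbours on a chromosome were compared in shape. By the RefSeq gene table (GRCm38.p6), Cd5 and Cd6 are adjacent protein-coding genes on chromosome 19, and Cd28, Ctla4 and Icos follow each other on chromosome 1. The measure was the root mean square difference of the mean-centred log2 signal over the 5 arrays, where 0 means the same shape. Of the 21 pairs of members, Cd5 and Cd6 were the closest at 0.43, followed by Cd6 and Cd28 at 0.45. Cd28 and Ctla4 were 1.45 apart, and the farthest pair was Cd2 and Thy1 at 1.98. Icos, a further costimulatory receptor, was under the floor on every array. With 5 arrays such likeness is a description only.

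Outside the set, the 3 genes closest in shape to each member were taken from 2503 others that were at least 2-fold apart over the arrays. For Cd6 they were Ccr9, a chemokine receptor of thymocytes, at 0.21, Rmnd5a at 0.23 and Dgka, a diacylglycerol kinase, at 0.28. For Cd5 they were Tspyl4 at 0.25, Stx6 at 0.26 and Bcl2l1, which encodes the survival protein Bcl-xL, at 0.29. Those of Cd28 were the T-cell receptor kinase gene Zap70 at 0.28, Cyb5a at 0.31 and Acp5 at 0.32. Those of Thy1 were Rgcc at 0.32 and the CD3 chain genes Cd3g and Cd3e at 0.47 and 0.49. No gene came as close to Cd2, where Ctsl, Ccr9 and Rnf145 were at 0.63, 0.64 and 0.68. Pdcd1 had Adk, Cycs and Gsr, genes of adenosine, mitochondrial and glutathione metabolism, at 0.41, 0.48 and 0.51. Ctla4 was nearest to Pgam2, Rab3a and Igf2, at 0.14, 0.15 and 0.20, which were all highest in DN3 and at most 183 on any other array. Ctla4 itself was at the floor on 4 arrays. Its small distances thus rest largely on values set to the floor and do not show a closer likeness than those of other members.

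Of 16 listed ligands of these and related receptors 11 had a probe set and 6 were above the floor on any array, of which Cd48, Lgals9 and Lgals1 were above it on all 5. Cd86, the shared ligand of CD28 and CTLA-4, was at 704 in DN1 and under the floor on the other 4 arrays, alongside the dendritic markers given above. Cd80 and Alcam were under the floor throughout. Cd48, the ligand of CD2, was 4768 in DN1, 3994 in DN2, 1488 in DN3, 1099 in preDP, then 1223 in DP. It was thus highest in DN1 and DN2 and 2.68-fold lower in DN3 than in DN2, with the later arrays close to DN3. Lgals9 and Lgals1, which encode galectins, were highest in DN2 at 8569.6 and 14802.

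Of 13 other costimulatory receptors listed, 10 had a probe set and 7 were above the floor, all of them at least 2-fold apart over the arrays, with 4 highest in DN1 and 3 in DP. In DN2 against DN1 0 of 7 measured were higher (4.75% of all genes) and 4 lower (8.56%), with a median log2 ratio of -1.16. In DP against preDP 3 of 6 measured were higher (11.3% of all genes) and 1 lower (11.7%), with a median log2 ratio of 0.46. Cd27, a tumour necrosis factor receptor family member, was 2283 in DN1, 2087 in DN2, 2294 in DN3, 2235 in preDP, then 9024 in DP, and it was 4.04-fold higher in DP than in preDP. It was thus level over the first 4 arrays and high in DP. Tnfrsf18 and Cd81 were 2.50-fold and 2.29-fold higher in DP than in preDP. Cd81 was 1155 in DN1, 380 in DN3 and 1557 in DP. Cd7 was 2157 in DN1, 434 in DN2, 73.9 in DN3, 383 in preDP, then 61.4 in DP. It was the only member of this list 2-fold higher in preDP than in DN3 and the only one 2-fold lower in DP than in preDP.

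Of 14 other inhibitory receptors 8 had a probe set and 7 were above the floor on some array. In DN3 against DN2, 3 of 4 measured were at least 2-fold lower (3.94% of all genes), with a median of -1.44. None was above the floor in DN3. Lag3 was 614 in DN1, 359.6 in DN2, 51.4 in DN3, 108 in preDP, then 382 in DP. Cd160 was 304 in DN1, 349.8 in DN2, 81.8 in DN3, 283 in preDP, then 24.8 in DP. Both were thus under the floor in DN3, the array on which Ctla4 was highest. Cd72 and Cd244a, receptors also found on B cells and natural killer cells, were 671 and 317 in DN1 and under the floor from DN3 on.

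In the family of SLAM and CD2 related receptors 5 of 9 listed genes had a probe set. Sh2d1a encodes SAP, an adaptor used by SLAM receptors. It was 97.1 in DN1, 100.7 in DN2, 545 in DN3, 1348 in preDP, then 2378 in DP. Like Cd28 it was under the floor on the first 2 arrays and higher on each later one. DN3 was at least 4.18-fold above DN2, preDP 2.47-fold above DN3 and DP 1.76-fold above preDP. Ly9 was 777 in DN1, 236 in DN2, 394 in DN3, 685 in preDP, then 935 in DP.

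Cytoplasmic partners of the receptors were mostly level until DP. Of 34 listed genes 26 had a probe set. In DP against preDP 9 of 23 measured were past 2-fold upwards (11.3% of all genes) and 0 downwards (11.7%). The median log2 ratio was 0.73. In the 3 earlier comparisons 1 of 21, 0 of 20 and 0 of 22 were higher and 1, 2 and 1 lower, with medians of -0.10, -0.12 and -0.01. Of all genes 4.75%, 2.02% and 1.14% were higher in those comparisons and 8.56%, 3.94% and 2.42% lower. Pstpip1, which encodes a protein bound to the CD2 tail, was 1597 in DN1, 1057 in DN2, 1080.1 in DN3, 713 in preDP, then 3490 in DP, and 4.90-fold higher in DP than in preDP. Prkcq, the protein kinase C theta gene used by CD28, was 3.48-fold higher there and Lcp2, the SLP-76 adaptor gene, 3.09-fold. Inpp5d, a lipid phosphatase gene, was 3.39-fold higher there, but it was highest in DN1, at 2052 against 1007 in DP. Pag1, an adaptor that binds the kinase CSK, was 2.23-fold higher in DP than in preDP. Its signal of 3250 in DP was close to that of 3107 in DN3. Pik3cd, a catalytic subunit of phosphoinositide 3-kinase, was instead highest in DN2 at 3379 and lowest in DP at 663.

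Genes listed here as induced by T-cell receptor signals, to which Cd5, Pdcd1 and Cd69 are counted as background knowledge, did not share 1 shape. Of 17 listed, 13 had a probe set and 11 were above the floor. Nr4a1 was 221 in DN1, 64.2 in DN2, 187 in DN3, 493 in preDP, then 250.2 in DP, so that, like Pdcd1, it was highest in preDP. Its value in DP was 1.97-fold lower than in preDP, that of Pdcd1 at least 6.11-fold lower. Itm2a was 174, 159, 267, 763 and 808 over the 5 arrays, 2.86-fold higher in preDP than in DN3. Egr2 was 185 in DN1, under the floor in DN2 and DN3, 257 in preDP, then 566 in DP, and Egr1 was 2.83-fold higher in DP than in preDP. For Id3, DN3 was at least 6.33-fold above DN2. In preDP against DN3, 2 of 9 measured members of the list were higher and 0 lower (median 0.26). In DP against preDP 3 of 9, Egr1, Egr2 and Myb, were higher and 0 lower (median 0.66). Of 11 measured in DN2 against DN1, 2, Bcl2 and Myb, were higher and 3, Egr1, Id3 and Ccr7, lower (median -0.76). For DN3 against DN2 the counts were 2 and 1 of 8 (median 0.38). Of all genes, 4.75% were higher and 8.56% lower in DN2 against DN1, and 2.02% and 3.94% in DN3 against DN2. These shares were 1.14% and 2.42% in preDP against DN3, and 11.3% and 11.7% in DP against preDP.

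**Figure D4:**
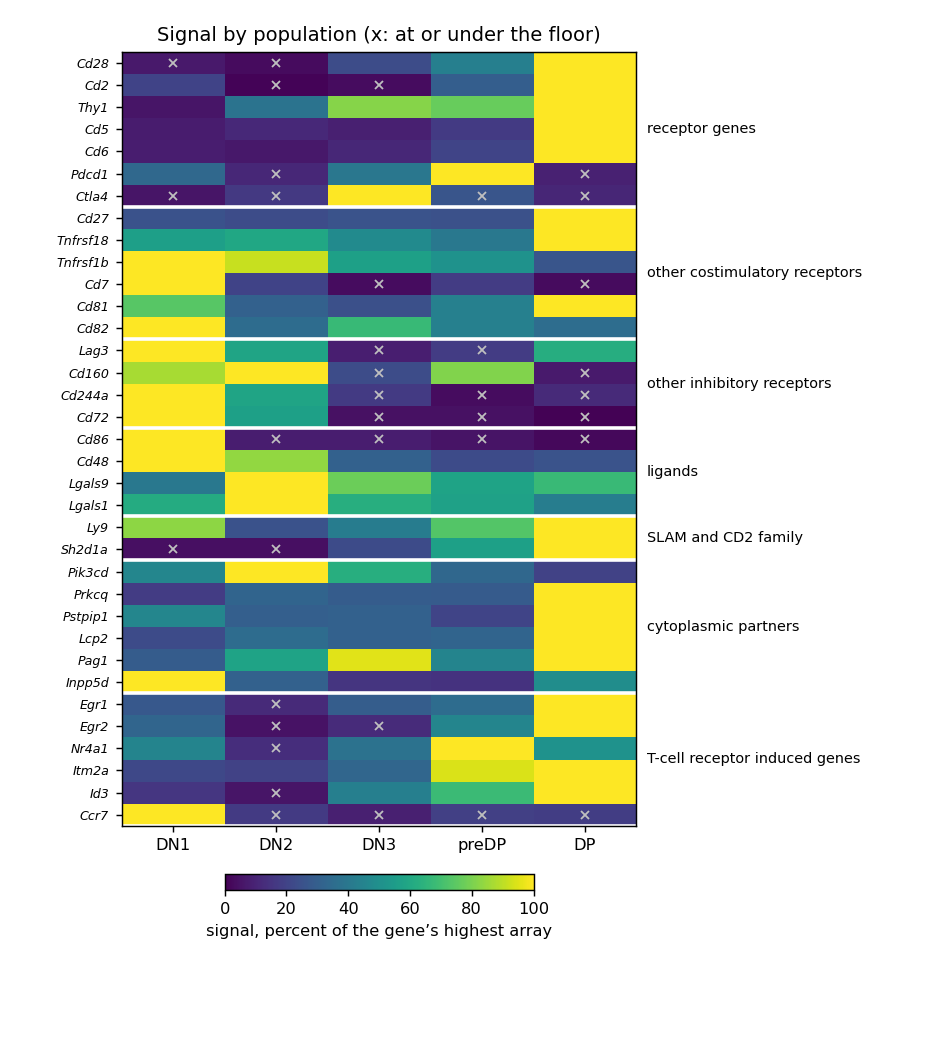
Signal of the receptor genes and of related genes at least 2-fold apart over the arrays, as percent of each gene's highest array (colour), by population; crosses mark signals at or under the floor of 130.4. Most cytoplasmic partners shown are brightest in DP with Cd28, Cd2, Cd5 and Cd6, whereas the other inhibitory receptors are highest in DN1 or DN2.

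Other floors moved the ratios of genes near the floor. The choice of probe set could move Cd6 alone, the only member with several probe sets. Its log2 ratio in DP against preDP was 1.33 with the second brightest probe set in place of 2.27. For the other members the alternatives in probe set repeat the main values and test nothing. Quantile normalisation moved Thy1 in DP against preDP from 0.38 to 0.74, still under 2-fold. Over the 28 ratios of 7 genes in 4 comparisons, none of the 15 that were at least 2-fold took the opposite sign under any of 9 alternatives, although 5 were 0.00 with the higher floor. Most of these alternatives could not reverse a sign. Other floors and an added constant keep the order of 2 signals, and both Cd6 probe sets gave the same order. Only quantile normalisation and the scalings to an equal median could have done so. Of these 15, 7 stayed at least 2-fold throughout: Thy1 in DN2 against DN1, Pdcd1 in preDP against DN3, and Cd28, Cd2, Cd5, Cd6 and Pdcd1 in DP against preDP.

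**Figure D5:**
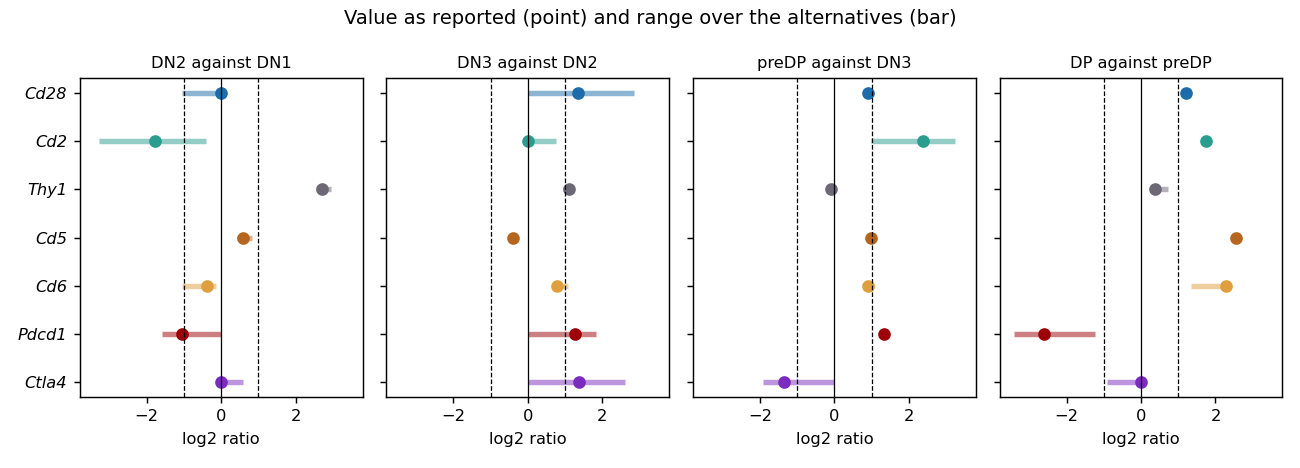
Log2 ratio of each receptor gene in the 4 comparisons, with the value as reported (point), the range over the alternatives (bar) and 2-fold marked by dashed lines. Bars reach 0 for Pdcd1, Ctla4 and Cd28 in DN3 against DN2, where the highest floor hid them, and all 5 points past 2-fold in DP against preDP stay past it.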

How the data were processed

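RNA of 5 sorted thymocyte populations was hybridised to Affymetrix arrays, 1 array each. The deposited signal intensities are linear. The submitters' processing notes name MAS5 and Affymetrix Expression Console 1.0 as the authors' tools, with settings and detection calls not given in the sources used here. With 2% trimmed at each end the arrays' means were 500.3 to 500.4, as scaling to 1 target would give, and this hides any difference in mRNA content per cell.

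Of 12488 probe sets, 10833 had 1 gene symbol by the platform's annotation and were no control; symbols were updated by gene identifier through the RefSeq gene table. Values under the floor, the median (50th percentile) of these probe sets' values, were set to it before log2. For the 2073 genes with several probe sets, the one with the highest mean was used, and all are given for the members. Genes at least 2-fold apart were counted among those above the floor on either array. No test was possible with 1 array per group. The counting and likeness steps were tested on simulated data (Python 3.11.15, pandas 2.3.3). The changes planted there were larger than 2-fold and in genes well above the floor. Smaller changes and genes near the floor were not covered by it.

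The genes named are the members, the 3 genes closest in shape to each, and up to 6 genes of each list with the largest range, if at least 2-fold. The members and lists were chosen with earlier results of these data known. Icos, Cd80, Alcam, Vpreb1, Bcl2, Myb and markers under the floor were named after their values were seen. The motifs and 1 scaling were also chosen after seeing the data.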

Additional observations from a re-analysis of the deposited data

How the results depend on the processing

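Quantile normalisation and scaling to an equal median each left 1 of the 2 members lower in DN2 than in DN1. With the floor at the 65th percentile that count was 0, the members higher in DN3 than in DN2 were 1 in place of 4, and in preDP against DN3 1 was higher in place of 2 and 0 lower in place of 1. Of the 72 counts under alternatives the other 66 stayed within 1.5 times. Some of them could hardly change, as the alternatives in probe set can alter the ratios of Cd6 alone among the members. The remaining alternatives were the floor at the 35th percentile, a constant of 50 added, the mean over probe sets, the second brightest probe set, leaving out shared probe sets, and scaling to an equal median of genes above the floor on all arrays, which was chosen after seeing the data. Scaling touches DN2 against DN1 most: of all genes 2-fold apart there, 35.7% were higher, but 60.2% with an equal median over all gene probe sets and 21.3% with an equal median over genes above the floor on all arrays, with all-gene medians of 0.13, 0.37 and -0.03. Thy1 in that comparison was between 2.55 and 2.96. Signal over background limits Ctla4, and Cd28 and Pdcd1 in DN3, whose signals lie between 316 and 336. No paired analysis was possible because each population had 1 array.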

Other observations

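Thy-1 belongs to the proteins held in the membrane by a glycolipid anchor, and other genes of that kind shared at most a part of the course of Thy1. Of 16 listed, 10 had a probe set and 9 were above the floor. Cd52, which encodes a short anchored glycoprotein, was 10041 in DN1, 1403 in DN2, 336 in DN3, 863 in preDP, then 6652 in DP, high at both ends of the series where Thy1 was lowest and highest. Ly6d was 3480.1 in DN1, 5742 in DN2, 15836 in DN3, 6729 in preDP, then 8923 in DP, so it was highest in DN3. Cd59a, a complement inhibitor gene, was above the floor in DN1, DN2 and DN3, at 134, 354 and 414, and under it afterwards. Cd24a was 6849 in DN1, 9810 in DN2, 14356 in DN3, 10224.5 in preDP, then 8678 in DP. Like Thy1, Ly6d, Cd59a and Cd24a were higher in DN2 than in DN1 and higher again in DN3. Unlike Thy1, they were highest in DN3 and not in DP. In the 4 comparisons 8, 9, 9 and 7 genes of the list were measured. Of these 1, 1, 1 and 1 were at least 2-fold higher, against 4.75%, 2.02%, 1.14% and 11.3% of all genes. The lower were 2, 2, 2 and 0, against 8.56%, 3.94%, 2.42% and 11.7%. Medians were -0.17, 0.22, -0.33 and 0.15.

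CD69, which was not analysed here, acts against the egress receptor S1PR1, and other genes of residence and egress were read in its place. Of 10 listed, 7 had a probe set and 5 were above the floor, with S1pr1 and Cd44 under it on every array. Ccr9 was 227 in DN1, 73.8 in DN2, 218 in DN3, 371 in preDP, then 2192 in DP, and Cxcr4 was 447, 727, 914, 672 and 2239.9. Both were highest in DP, 5.91-fold and 3.34-fold above preDP, and they were the 2 genes of the list measured in that comparison. Ccr7 and the integrin gene Itgae were above the floor in DN1 alone, at 485 and 493, on the array that also held the myeloid, dendritic and B-lineage markers, whose part was not tested. Of 6 mature single positive markers with a probe set, 5 were above the floor in DN1 and 2, Cd52 and Itgb7, in DP, where Klf2, S1pr1, Ccr7 and Il7r were under it.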
